A study of Mus musculus with 30 samples.

Results

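The genes described here make fatty acids and build them into triglyceride. They are 34 genes of fatty acid and triglyceride synthesis, chosen by symbol from a list of regulators and enzymes, with earlier results of these data known, so that shares of them that passed a test are a description, and all 34 were found in the 54838 genes of the kidney count table and in the 55487 genes of the gastrocnemius count table. They comprise 3 regulators, 7 genes of palmitate synthesis, 5 elongases, 4 desaturases, 3 acyl-CoA synthetases and 12 genes of glycerolipid assembly. The samples came from male C57BL/6J wild-type mice kept at thermoneutrality (30 to 32 °C) as a dietary model of non-alcoholic fatty liver disease. From Week 7 to Week 24 of age, the CD group ate the control (chow) diet and the WD group a western diet enriched in fat and sucrose. Both groups were gavaged with water. The WD+CHP group ate the same western diet and was gavaged 3 times a week with 20 mg/kg cyclo(His-Pro), a cyclic dipeptide abbreviated CHP. Tissues were collected after a fast of 3 h, and bulk RNA was sequenced from 5 libraries of each group in kidney and in gastrocnemius, a fast calf muscle. CD mice given CHP were not analysed here, so the action of CHP could be read only on WD. Per the methods of the study each mouse gave its own RNA, and the labels number the 5 libraries of a group as replicates.

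De novo lipogenesis turns citrate and acetate into acetyl-CoA, acetyl-CoA carboxylase turns this into malonyl-CoA, and fatty acid synthase extends malonyl-CoA to palmitate with NADPH as the reductant. Elongases and desaturases then lengthen and desaturate palmitate and dietary fatty acids, and acyl-CoA synthetases, glycerol-3-phosphate acyltransferases, AGPAT enzymes, lipins and diacylglycerol acyltransferases join them to glycerol to give triglyceride. The transcription factors SREBP-1 (gene *Srebf1*), ChREBP (*Mlxipl*) and PPARγ (*Pparg*) drive many of these genes in liver and adipose tissue. In muscle, malonyl-CoA from ACC2 (*Acacb*) is best known as a brake on fatty acid entry into mitochondria. In kidney, the proximal tubule burns fatty acids as a main fuel.

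The sequence before a start site is shown for 4 enzyme genes whose response to WD is described below, of which 3 fell and 1 rose in muscle, and for *Mlxipl*, the regulator gene that holds the only sterol regulatory element found. The RefSeq promoters of assembly GRCm38.p6 matched 27 of the 34 genes, with 39 windows of 250 bases before a start. The stretches below are the 150 bases nearest to the start, read 5′ to 3′ on the strand of the gene. Capitals mark matches on either strand to the sterol regulatory element TCACNCCAC, the E-box CACGTG or the CCAAT box CCAAT, with N for any base.
*Acly*, chr11:100528001-100528150, minus strand: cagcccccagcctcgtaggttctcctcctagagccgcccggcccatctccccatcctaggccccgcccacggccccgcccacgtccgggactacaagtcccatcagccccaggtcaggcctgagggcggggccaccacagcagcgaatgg
*Fasn*, chr11:120824548-120824697, minus strand: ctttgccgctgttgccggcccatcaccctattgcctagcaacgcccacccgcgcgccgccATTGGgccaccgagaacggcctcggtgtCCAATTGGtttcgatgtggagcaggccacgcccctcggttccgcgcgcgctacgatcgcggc
*Lpin1*, chr12:16610967-16611116, minus strand: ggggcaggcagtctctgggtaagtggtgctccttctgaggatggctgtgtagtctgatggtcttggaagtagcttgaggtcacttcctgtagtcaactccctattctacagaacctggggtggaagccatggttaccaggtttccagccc
*Agpat2*, chr2:26604418-26604567, minus strand: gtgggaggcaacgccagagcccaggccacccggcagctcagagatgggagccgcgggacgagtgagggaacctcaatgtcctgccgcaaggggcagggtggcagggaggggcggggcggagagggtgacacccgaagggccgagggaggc
*Mlxipl*, internal start, chr5:135106741-135106890, plus strand: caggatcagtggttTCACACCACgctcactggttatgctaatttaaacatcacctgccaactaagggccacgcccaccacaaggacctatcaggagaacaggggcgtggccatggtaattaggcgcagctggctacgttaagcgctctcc

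In the *Fasn* promoter the CCAAT letters lie 90, 62 and 59 bases before the start, the last pair overlapping on opposite strands. *Mlxipl* has 2 RefSeq windows. The printed stretch lies before an internal start of the gene and holds the sterol regulatory element 136 bases before it. The window at the start of the gene (chr5:135089640-135089889) holds no sterol regulatory element, but an E-box at 98 and a CCAAT box at 173 bases before the start. Over all 39 windows of 250 bases, the sterol regulatory element was in 1 (2.56%), against 1.05% of the 32851 windows of all genes. The E-box was in 3 of 39 (7.69%), those of *Mlxipl*, *Elovl5* and *Lpin2*, against 6.02% of all windows. The CCAAT letters were in 17 of 39 (43.6%), against 33.8% of all windows. The printed stretches of *Acly*, *Lpin1* and *Agpat2* hold none of these letters, which says nothing about the binding of a factor.

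The libraries held 37189192 to 38211422 counts in kidney and 50319024 to 53282969 in gastrocnemius, with 17.8% to 21.1% and 7.74% to 11.5% of counts on mitochondrial genes. Levels below are counts-per-million (CPM), scaled within a tissue with TMM factors. The extraction text in the labels names frozen liver for both tissues. All 7 proximal tubule markers passed the expression filter in kidney and none did in gastrocnemius, and all 8 fast fibre markers passed in gastrocnemius. The summed CPM of 6 hepatocyte genes was 828 in WD replicate 5 of the kidney, against 103 to 266 in the other kidney libraries. In gastrocnemius it was 59.6 in CD replicate 1 and 60.5 in WD replicate 3, against at most 13.2 elsewhere. The summed CPM of 9 adipocyte markers ran from 49.4 to 103 in gastrocnemius CD and WD libraries and from 1.54 to 10.5 in kidney libraries. *Elovl3*, an elongase of brown fat and skin, had at most 35 counts in any kidney library and 11 in any gastrocnemius library and failed the filter in both tissues, and *Mogat1* failed it in gastrocnemius, so 33 genes were tested in kidney and 32 in gastrocnemius.

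The first comparison asked how the western diet changed lipid synthesis genes in tissues other than the liver. In gastrocnemius, *Dgat2*, *Scd1*, *Agpat2* and *Elovl1* were higher in WD than in CD, and *Acly*, *Acaca*, *Fasn*, *Elovl6* and *Lpin1* were lower. In kidney, *Scd2* and *Dgat2* were higher, and *Fads1*, *Fads2*, *Elovl6*, *Gpam*, *Agpat3* and *Lpin3* were lower. These were 9 of 32 genes in gastrocnemius (28.1%), beside 8.63% of all 15419 genes tested, and 8 of 33 in kidney (24.2%), beside 9.65% of all 17120 genes tested, at an adjusted p under 0.05 with edgeR. The median log2 fold change of the listed genes was 0.0145 in gastrocnemius and 0.0039 in kidney, and that of all genes was 0.0013 and 0.0015, all close to 0. The genes that did not pass had log2 fold changes from -0.32 (*Lpin3*) to 0.49 (*Scd2*) in gastrocnemius and from -0.56 (*Gpat3*) to 0.26 (*Srebf1*) in kidney. The 3 acyl-CoA synthetase genes *Acsl3*, *Acsl4* and *Acsl5*, which activate fatty acids, passed in no comparison of diet or CHP in either tissue, except that *Acsl5* was higher in gastrocnemius WD vs. CD by library total (log2 fold change 0.26, adjusted p = 0.043). When scaled by library total in place of TMM, 11 gastrocnemius genes passed, 8 higher and 3 lower, against 4 higher and 5 lower with TMM. The falls of *Acly* (log2 fold change -0.35, adjusted p = 0.053) and *Elovl6* (-0.62, adjusted p = 0.056) did not pass by library total.

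**Figure D1:**
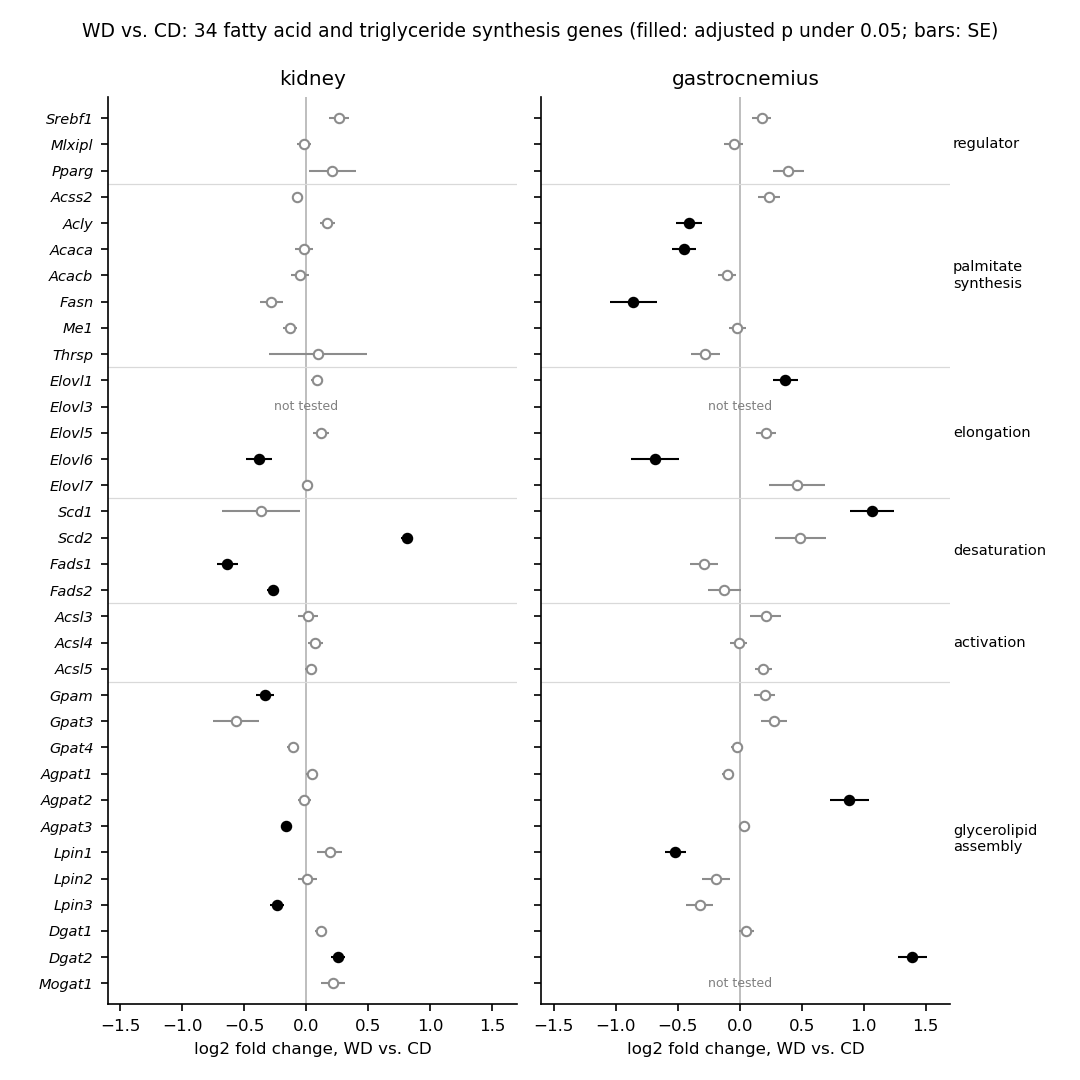
Log2 fold change of WD vs. CD for the 34 genes in kidney (left) and gastrocnemius (right), ordered by role, with bars for the standard error and filled points for an adjusted p under 0.05. The filled points of gastrocnemius run from -0.86 (*Fasn*) to 1.39 (*Dgat2*), and those of kidney from -0.64 (*Fads1*) to 0.81 (*Scd2*).

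Of 7 genes of palmitate synthesis, *Fasn*, *Acaca* and *Acly* fell on WD in gastrocnemius, the other 4 did not pass the test, and none of the 7 passed the test in kidney. *Fasn* (ENSMUSG00000025153, chr11:120805846-120824547, minus strand), which encodes fatty acid synthase, stood at 80.5, 61.2, 66.1, 52.9 and 118 CPM in CD, 48.0, 38.3, 44.1, 49.9 and 28.8 in WD, and 29.4, 37.5, 38.0, 34.1 and 27.8 in WD+CHP. All 5 WD libraries lay below all 5 CD libraries, a 1.81-fold fall (log2 fold change -0.86, SE 0.19, adjusted p = 0.0090). CD replicate 5 was the highest, well above the other CD libraries. *Acaca* (ENSMUSG00000020532, chr11:84129672-84401651, plus strand), which encodes acetyl-CoA carboxylase 1, stood at 35.1, 33.5, 31.7, 28.2 and 37.5 CPM in CD, 29.3, 22.5, 26.3, 23.7 and 19.7 in WD, and 24.0, 24.9, 26.5, 20.2 and 22.1 in WD+CHP. Here only the highest WD library reached into the CD range, and the fall was 1.37-fold (log2 fold change -0.45, SE 0.10, adjusted p = 0.010). *Acly* (ENSMUSG00000020917, chr11:100476353-100528000, minus strand), whose product ATP-citrate lyase makes cytosolic acetyl-CoA from citrate, stood at 26.9, 22.2, 23.3, 19.1 and 31.4 CPM in CD, 20.6, 17.1, 19.6, 17.4 and 17.8 in WD, and 15.8, 18.1, 16.9, 15.1 and 16.9 in WD+CHP. Its WD libraries were close together and overlapped only the lowest CD library, with a 1.33-fold fall (log2 fold change -0.41, SE 0.10, adjusted p = 0.020). The fall of *Acly* did not pass the test without WD replicate 2 (adjusted p = 0.053).

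In the edgeR fit with TMM, all libraries and no added terms, the 3 regulators did not pass the test in either tissue. *Pparg* passed in gastrocnemius by library total (log2 fold change 0.46, adjusted p = 0.031), and kidney *Srebf1* passed with the replicate block (0.27, adjusted p = 0.040) and without WD replicate 5 (0.30, adjusted p = 0.036). Gastrocnemius *Srebf1* (ENSMUSG00000020538, chr11:60199089-60222581, minus strand) stood at 123, 140.4, 109, 118 and 128 CPM in CD, 140.0, 120.5, 165, 137 and 137 in WD, and 142, 147, 146, 154 and 164 in WD+CHP, with overlapping groups on WD (log2 fold change 0.18, SE 0.077, adjusted p = 0.17). *Srebf1* overlaps exons of *Rai1* on the opposite strand, which had a mean count of 1383 in kidney and 1438 in gastrocnemius, so reads of the pair may not be told apart in either tissue. *Pparg*, which is highest in adipocytes, had a log2 fold change of 0.39 (SE 0.12, adjusted p = 0.056) in gastrocnemius. The positive estimate of *Srebf1* mRNA did not pass, and its relation to *Fasn*, *Acaca* and *Acly* was not tested. Processing of the SREBP-1 protein was not measured.

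Among elongases and desaturases of the muscle, *Elovl6* fell while *Scd1* and *Elovl1* rose. *Elovl6* (ENSMUSG00000041220, chr3:129532355-129638495, plus strand), which extends palmitate to stearate, was a low gene at 2.32, 2.16, 1.95, 1.38 and 3.45 CPM in CD, 1.33, 1.27, 1.57, 1.48 and 1.36 in WD, and 1.21, 0.953, 1.16, 0.745 and 0.839 in WD+CHP. 3 WD libraries lay below all CD libraries, the other two overlapped the lowest CD library only, and the fall was 1.61-fold (log2 fold change -0.68, SE 0.19, adjusted p = 0.037). This call was lost when CD replicate 1, CD replicate 5 or any WD library was left out (adjusted p up to 0.0924), and it was kept in 5 of 12 other settings, limma-voom not among them. *Scd1* (ENSMUSG00000037071, chr19:44394455-44407879, minus strand), the stearoyl-CoA desaturase that makes oleate and palmitoleate, stood at 254, 184, 189.8, 153 and 288 CPM in CD, 538, 408, 447, 455 and 394 in WD, and 148, 282, 208, 231 and 164 in WD+CHP. Every WD library lay above every CD library and every WD+CHP library. The rise was 2.10-fold (log2 fold change 1.07, SE 0.18, adjusted p = 0.0014). *Scd2*, its near paralogue, had a log2 fold change of 0.49 (SE 0.21, adjusted p = 0.16). *Elovl1* (ENSMUSG00000006390, chr4:118428093-118432953, plus strand), an elongase of very long saturated chains, stood at 5.40, 5.03, 4.38, 4.11 and 4.30 CPM in CD, 4.92, 5.43, 5.94, 6.77 and 6.89 in WD, and 5.73, 6.16, 6.43, 5.71 and 6.81 in WD+CHP. The rise was small and the groups overlapped (log2 fold change 0.37, SE 0.10, adjusted p = 0.033), and it was lost without any of CD replicates 3 to 5 or WD replicates 3 to 5 (adjusted p up to 0.0822).

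Glycerolipid assembly held the largest rise among the 32 genes tested in muscle, that of *Dgat2*. *Dgat2* (ENSMUSG00000030747, chr7:99153658-99182719, minus strand) encodes diacylglycerol acyltransferase 2, which attaches the last acyl chain of triglyceride. It stood at 26.1, 32.2, 24.6, 21.2 and 27.5 CPM in CD, 70.4, 67.0, 85.9, 59.8 and 62.8 in WD, and 48.0, 61.8, 62.7, 52.3 and 58.7 in WD+CHP. The lowest WD library was well above the highest CD library, a 2.63-fold rise (log2 fold change 1.39, SE 0.11, adjusted p = 7.8e-06). *Dgat1*, the other enzyme of this step, did not pass the test. *Agpat2* (ENSMUSG00000026922, chr2:26593057-26604417, minus strand), whose product makes phosphatidic acid and is needed for adipose tissue, stood at 4.37, 5.31, 3.82, 2.58 and 5.12 CPM in CD, 8.18, 6.50, 8.40, 7.97 and 8.21 in WD, and 4.64, 7.15, 6.41, 5.47 and 5.93 in WD+CHP. All WD libraries were above all CD libraries, a 1.85-fold rise (log2 fold change 0.89, SE 0.16, adjusted p = 0.0021). Its gene overlaps exons of *Egfl7* on the opposite strand, the counting's strand setting is not given in the sources used here, and *Egfl7* had a log2 fold change of 0.18 (adjusted p = 0.47) in the same comparison. *Lpin1* (ENSMUSG00000020593, chr12:16535669-16610966, minus strand), the main phosphatidic acid phosphatase of muscle, went the other way at 466, 497, 583, 546 and 593 CPM in CD, 374, 369.5, 381, 400.4 and 348 in WD, and 508, 404, 359, 432 and 392 in WD+CHP. All WD libraries were below all CD libraries, a 1.43-fold fall (log2 fold change -0.52, SE 0.085, adjusted p = 0.0012). The other 8 tested genes of glycerolipid assembly did not pass the test with TMM, and by library total *Gpam* (log2 fold change 0.27, adjusted p = 0.037) and *Gpat3* (0.34, adjusted p = 0.0499) were higher in WD.

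**Figure D2:**
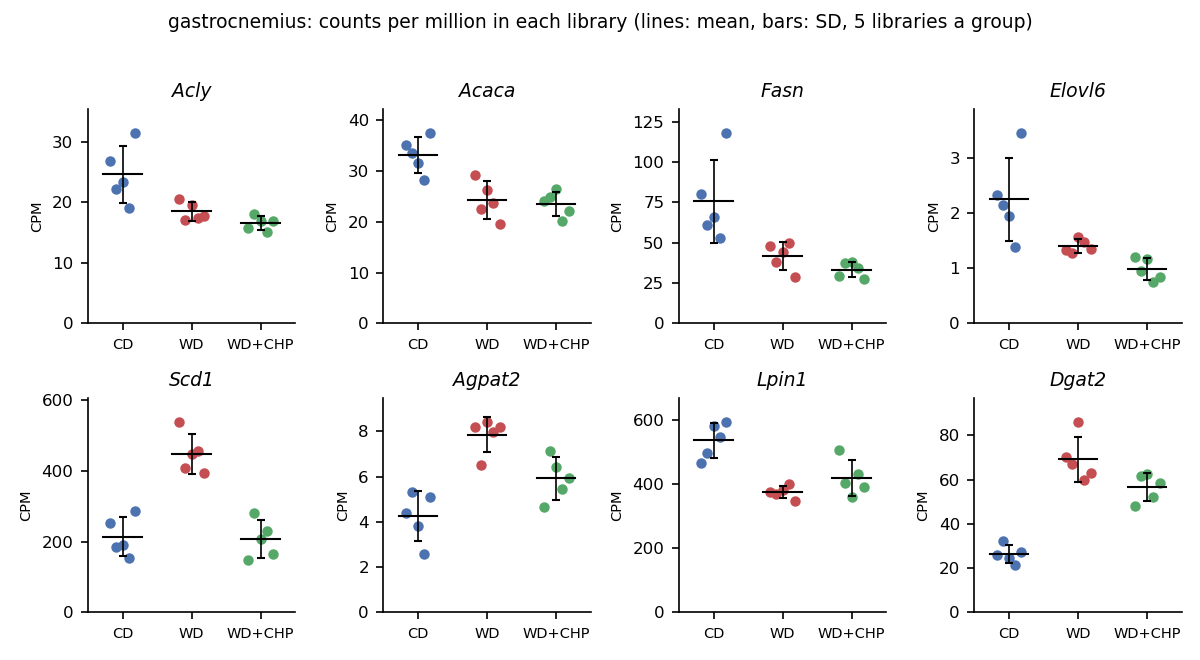
CPM of 8 genes in each gastrocnemius library, with points for libraries, lines for the mean and bars for the SD of 5 libraries a group. *Dgat2* rose from 26.3 ± 4.05 in CD to 69.2 ± 10.2 in WD, and *Scd1* from 214 ± 55.2 to 448 ± 56.2 before standing at 207 ± 53.7 in WD+CHP.

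Adipocyte markers moved with part of these changes. Of 9 adipocyte markers tested in gastrocnemius, 6 rose on WD vs. CD, among them *Adipoq* (log2 fold change 1.00), *Lep* (3.96), *Plin1* (0.93) and *Cidec* (1.38), and 1 fell, *Cfd* (-1.59). None of the 9 was at 0. Their summed CPM was 89.1, 81.7, 56.2, 49.4 and 61.2 in CD, 103, 87.0, 89.5, 99.1 and 86.5 in WD, and 35.2, 62.5, 46.1, 49.4 and 42.7 in WD+CHP. In CD and WD libraries the sums overlapped little, with CD replicate 1 within the WD range. *Dgat2*, *Scd1* and *Agpat2* are also expressed by adipocytes. With the adipocyte score as a covariate, none of the 32 genes passed and 1 of all genes did. The log2 fold changes of WD vs. CD became 1.02 for *Dgat2*, 0.26 for *Scd1*, 0.11 for *Agpat2* and -1.18 for *Fasn*. They became -0.64 for *Acly*, -0.61 for *Acaca*, -0.69 for *Elovl6*, -0.21 for *Lpin1* and 0.085 for *Elovl1*. The marker sums of CD and WD overlapped little, so this fit separates the score from the diet poorly. In bulk tissue, fewer or more cells of a type and less or more RNA per cell cannot be told apart. Without CD replicate 1 and WD replicate 3, the libraries with the most hepatocyte RNA, 7 genes passed, and *Acly* (log2 fold change -0.40, adjusted p = 0.069) and *Elovl6* (-0.72, adjusted p = 0.085) were not among them, with estimates close to those from all libraries. Of other markers, *Cidea*, the 1 brown adipocyte marker tested, rose (2.12), with a brown adipocyte sum of 0.849 to 1.40 in WD against 0.102 to 0.492 in CD. Of 8 fast fibre markers *Ckm* fell (-0.26), with sums of 176270 to 207140 in WD and 198800 to 239690 in CD. Their part in these results was not tested.

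In kidney, 3 of 4 desaturases passed the test. *Scd2* (ENSMUSG00000025203, chr19:44293674-44306864, plus strand) stood at 59.9, 60.0, 62.0, 56.9 and 58.1 CPM in CD, 99.3, 111, 99.3, 103 and 109 in WD, and 97.9, 93.5, 92.2, 91.7 and 109 in WD+CHP. The CD libraries were tight and far below the rest, and WD was 1.76-fold higher (log2 fold change 0.81, SE 0.050, adjusted p = 1.7e-07). *Fads1* (ENSMUSG00000010663, chr19:10182888-10196877, plus strand), the delta-5 desaturase of polyunsaturated fatty acids, stood at 151, 128, 148, 127 and 151 CPM in CD, 81.0, 86.7, 84.3, 94.7 and 106 in WD, and 107, 102, 93.8, 96.5 and 80.1 in WD+CHP. All WD libraries lay below all CD libraries, a 1.55-fold fall (log2 fold change -0.64, SE 0.084, adjusted p = 2.8e-04). *Fads2* (ENSMUSG00000024665, chr19:10062765-10101746, minus strand), the delta-6 desaturase that acts before it, stood at 200.3, 187, 173, 171 and 194 CPM in CD, 154, 156, 149, 148 and 159 in WD, and 158, 149.8, 158, 165 and 161 in WD+CHP. It too was lower in every WD library, by 1.21-fold (log2 fold change -0.27, SE 0.045, adjusted p = 0.0016). The pair lie next to each other on chromosome 19. Markers of kidney cells moved in the same comparison. Of 7 proximal tubule markers, 3 fell (*Cubn*, *Slc27a2* and *Kap*) and 1 rose (*Slc5a2*), and their summed CPM was 29283 to 32748 in WD against 33420 to 37059 in CD, with no overlap, and 32271 to 37407 in WD+CHP. Of 6 hepatocyte markers, 2 rose (*Ttr* and *Serpina1a*), and of 4 tested fast fibre markers *Pvalb* rose (0.51). None of these markers was at 0, and their part in the kidney results was not tested.

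*Scd1* of the kidney turned on 1 library. It stood at 321, 202, 277, 424 and 279 CPM in CD, 149.8, 189, 187, 130.3 and 510.2 in WD, and 337, 225, 179, 177 and 264 in WD+CHP. WD replicate 5, also the kidney library with the hepatocyte sum of 828, was far above the other WD libraries, which were at most 189. With all libraries, WD vs. CD had a log2 fold change of -0.37 (SE 0.31, adjusted p = 0.51). Without WD replicate 5 it was lower on WD, with a log2 fold change of -0.87 (SE 0.21, adjusted p = 0.017). The part of hepatocyte RNA in this value was not tested. The summed adipocyte markers of the kidney were 6.65, 2.38, 6.77, 10.5 and 1.91 in CD, 2.35, 2.49, 1.54, 5.22 and 5.76 in WD, and 2.79, 3.75, 2.45, 3.30 and 7.46 in WD+CHP, and 1 of 5 tested passed in WD vs. CD, a fall. Without CD replicate 4, WD replicate 5 and WD+CHP replicate 5, the libraries with the most adipocyte RNA in their groups, kidney *Scd1* had a log2 fold change of -0.72 (SE 0.19, adjusted p = 0.031), and 10 genes passed in all.

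Of the other fatty acid synthesis genes in kidney, only *Elovl6* passed. *Elovl6* stood at 26.7, 22.2, 26.8, 24.6 and 29.7 CPM in CD, 16.6, 17.5, 18.4, 22.6 and 24.8 in WD, and 20.9, 21.3, 16.8, 19.5 and 19.4 in WD+CHP. WD replicates 4 and 5 reached into the CD range, and the fall was 1.30-fold (log2 fold change -0.38, SE 0.10, adjusted p = 0.029), a call that was lost without any of CD replicates 1, 3 and 5 or WD replicates 1 to 3 (adjusted p up to 0.077) and with the adipocyte score as a covariate (-0.33, adjusted p = 0.057). *Acly* stood at 169, 164, 165, 145 and 139 CPM in CD, 184, 174, 183, 174 and 165 in WD, and 158, 149, 158, 169 and 185 in WD+CHP. Its estimate was positive, with a log2 fold change of 0.17 (SE 0.063, adjusted p = 0.098). *Fasn* had a log2 fold change of -0.28 (SE 0.093, adjusted p = 0.063), and *Srebf1* a log2 fold change of 0.26 (SE 0.081, adjusted p = 0.051). The remaining regulators and palmitate genes did not pass the test either.

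In glycerolipid assembly of the kidney, 3 of 12 genes fell and 1 rose. *Gpam* (ENSMUSG00000024978, chr19:55067268-55127238, minus strand), the mitochondrial glycerol-3-phosphate acyltransferase that starts the pathway, stood at 79.2, 99.3, 83.0, 79.6 and 78.9 CPM in CD, 61.3, 73.1, 69.5, 66.7 and 63.2 in WD, and 74.9, 75.6, 76.3, 89.8 and 89.3 in WD+CHP. All WD libraries were below all CD libraries, a 1.26-fold fall (log2 fold change -0.33, SE 0.073, adjusted p = 0.0095). *Agpat3* (ENSMUSG00000001211, chr10:78269178-78352489, minus strand), an acyltransferase of the next step, stood at 463, 466, 470.2, 462 and 476 CPM in CD, 446, 418, 403, 409.8 and 412 in WD, and 449, 421, 446, 454 and 413 in WD+CHP. The fall was 1.12-fold, with no overlap of the groups (log2 fold change -0.16, SE 0.037, adjusted p = 0.011). *Lpin3* (ENSMUSG00000027412, chr2:160880670-160906002, plus strand), a lipin of low level, stood at 14.4, 13.8, 15.1, 13.4 and 13.4 CPM in CD, 12.2, 10.7, 11.2, 13.2 and 12.1 in WD, and 13.0, 12.8, 11.9, 12.4 and 11.4 in WD+CHP. It was 1.18-fold lower in WD, without overlap (log2 fold change -0.24, SE 0.059, adjusted p = 0.019), and lost the call without WD replicate 2 or WD replicate 3 (adjusted p up to 0.053). *Dgat2* stood at 141, 144, 141, 142 and 154 CPM in CD, 177, 168, 161, 171 and 186 in WD, and 151, 147, 180.4, 161 and 173 in WD+CHP. It was the gene of this group that rose, 1.20-fold and with no overlap (log2 fold change 0.26, SE 0.055, adjusted p = 0.0079), a smaller change than in muscle. *Gpat3* (ENSMUSG00000029314, chr5:100845713-100899102, plus strand), an acyltransferase of the endoplasmic reticulum parallel to *Gpam*, stood at 8.77, 6.82, 5.85, 9.44 and 12.2 CPM in CD, 4.90, 5.06, 4.38, 6.80 and 7.95 in WD, and 6.16, 5.36, 4.67, 4.88 and 6.25 in WD+CHP. Its estimate was negative with overlapping groups (log2 fold change -0.56, SE 0.18, adjusted p = 0.063). *Gpat3* passed without WD replicate 5 (-0.70, adjusted p = 0.027), with the replicate block (-0.56, adjusted p = 0.0084) and without the 3 libraries with the most adipocyte RNA (-0.67, adjusted p = 0.044). *Mogat1* passed with the replicate block (0.23, adjusted p = 0.033).

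**Figure D3:**
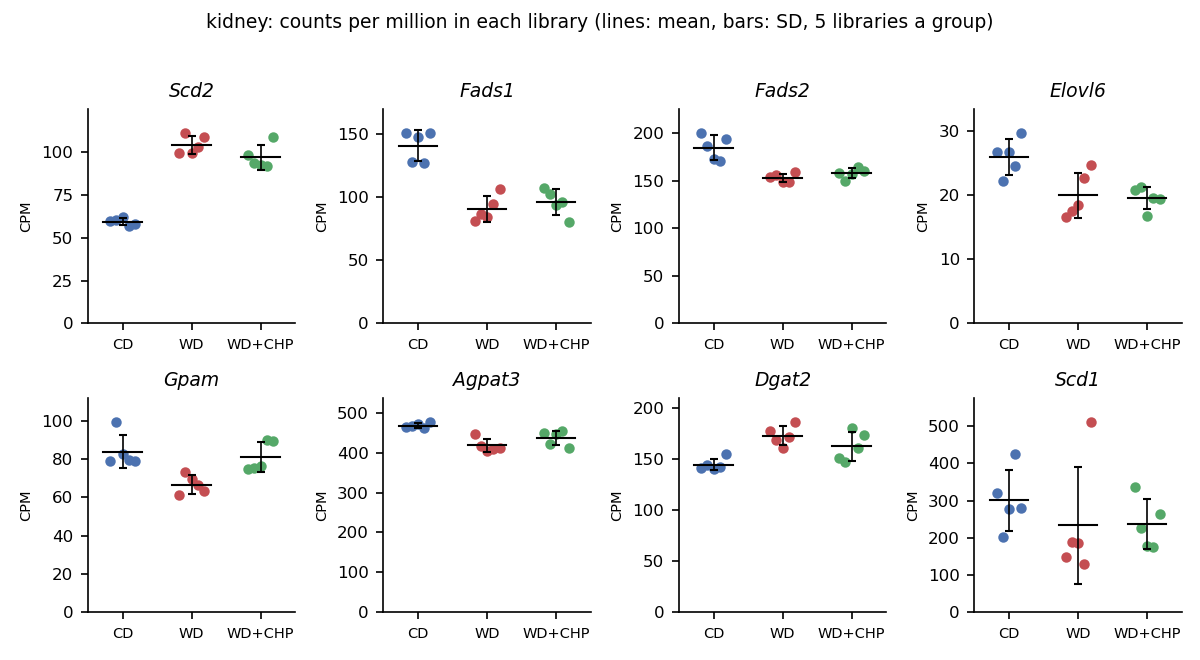
CPM of 8 genes in each kidney library, with points for libraries, lines for the mean and bars for the SD of 5 libraries a group. *Scd2* rose from 59.4 ± 1.98 in CD to 104 ± 5.31 in WD, *Fads1* fell from 141 ± 12.3 to 90.6 ± 10.1, and 1 WD library of *Scd1* stands at 510.2 above the others.

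The response to WD itself was then compared between tissues, as the difference of the log2 fold changes (gastrocnemius minus kidney) in 1 fit of all 30 libraries. The sources used here do not say which kidney and muscle libraries share a mouse, so both tissues of 1 mouse may be among them, and the fit treats them as independent. The difference passed for 7 of 33 genes (21.2%), beside 4.13% of all 18708 genes tested. It also passed for 2 of 9 adipocyte markers, *Adig* (2.16) and *Trarg1* (1.01), and their part in the differences of *Dgat2*, *Agpat2* and *Scd1* was not tested. The difference was 1.14 (SE 0.13, adjusted p = 2.5e-06) for *Dgat2*, which rose in both tissues. *Agpat2* rose in gastrocnemius and had a kidney log2 fold change of -0.015, and the difference was 0.90 (SE 0.16, adjusted p = 8.6e-04). Kidney *Agpat2* stood at 27.6, 32.04, 31.9, 31.3 and 28.2 CPM in CD, 30.3, 29.1, 29.3, 29.8 and 31.1 in WD, and 27.7, 28.6, 27.7, 26.8 and 31.0 in WD+CHP, with all groups overlapping. *Lpin1* fell in gastrocnemius and had 0.19 in kidney, a difference of -0.71 (SE 0.14, adjusted p = 0.0028). Kidney *Lpin1* stood at 133, 93.2, 110.2, 89.9 and 94.0 CPM in CD, 129, 110.0, 134, 118 and 101 in WD, and 124, 123, 155, 123 and 124 in WD+CHP. The WD and CD libraries overlapped there. *Acly* differed by -0.58 (SE 0.12, adjusted p = 0.0041), with a fall in muscle and a positive kidney estimate.

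For *Gpam* the difference was 0.53 (SE 0.12, adjusted p = 0.0074). It fell in kidney, whereas gastrocnemius *Gpam* stood at 196, 197, 201, 215 and 191 CPM in CD, 258, 228, 276, 197 and 193 in WD, and 222, 215, 200.0, 224 and 217 in WD+CHP, with a log2 fold change of 0.20 (SE 0.083, adjusted p = 0.14). *Gpat3* differed by 0.84 (SE 0.22, adjusted p = 0.029). In gastrocnemius it stood at 3.91, 4.01, 3.56, 3.64 and 3.68 CPM in CD, 5.70, 4.25, 3.53, 4.30 and 5.03 in WD, and 4.07, 4.25, 4.98, 4.37 and 4.73 in WD+CHP, with a log2 fold change of 0.28 (SE 0.11, adjusted p = 0.12). In the edgeR fit with TMM, all libraries and no added terms, neither tissue passed on its own for *Gpat3*. *Scd1* differed by 1.44 (SE 0.38, adjusted p = 0.029). Without kidney WD replicate 5 the *Scd1* difference was 1.96 (SE 0.29, adjusted p = 1.5e-04). The *Scd1* difference was lost without kidney CD replicate 4, any of kidney WD replicates 1 to 3, gastrocnemius CD replicate 4 or gastrocnemius WD replicate 1 (adjusted p up to 0.0596), and that of *Gpat3* without kidney CD replicate 5, any of kidney WD replicates 1 to 3 or gastrocnemius WD replicate 1 (adjusted p up to 0.0622).

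Other pairs that look unlike in the plot of WD vs. CD did not pass the test of the difference. *Scd2* passed in kidney and not in gastrocnemius, and its difference was -0.33 (95% interval -0.78 to 0.12, adjusted p = 0.50). *Fads1* differed by 0.34 (95% interval 0.054 to 0.63, adjusted p = 0.21), *Fads2* by 0.15 (95% interval -0.11 to 0.41, adjusted p = 0.62) and *Elovl6*, which fell in both tissues, by -0.30 (95% interval -0.72 to 0.12, adjusted p = 0.51). For *Fasn* it was -0.57 (95% interval -0.99 to -0.14, adjusted p = 0.15) and for *Acaca* -0.43 (95% interval -0.68 to -0.18, adjusted p = 0.054).

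The next comparison asked what CHP changed on WD, and few of these genes passed. In gastrocnemius, 1 of 32 passed in WD+CHP vs. WD (3.12%), beside 0.409% of all genes tested. An unadjusted p under 0.05 was found for 9 of 32, beside 1929 of all 15419 genes tested. In kidney, edgeR called 0 of 33, beside 0.105% of all genes tested, and DESeq2 called 1. An unadjusted p under 0.05 was found for 7 of 33, beside 1958 of all 17120 genes tested. The gene that passed was *Scd1* in muscle. It was 2.17-fold lower in WD+CHP than in WD (log2 fold change -1.12, SE 0.18, adjusted p = 0.011), and all 5 WD+CHP libraries were below all 5 WD libraries. Against CD it had a log2 fold change of -0.048 (SE 0.18, adjusted p = 0.90), and the WD+CHP and CD libraries overlapped. The call was just lost without WD+CHP replicate 5 (adjusted p = 0.0511).

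Adipocyte markers fell in the same comparison. Of 9 tested, 5 fell in gastrocnemius and none rose, among them *Adipoq* (log2 fold change -1.15), *Lep* (-1.89), *Plin1* (-0.98) and *Cidec* (-1.31). Their sum was 35.2 to 62.5 in WD+CHP against 86.5 to 103 in WD, with no overlap. With the adipocyte score as a covariate, *Scd1* had a log2 fold change of -0.39 (adjusted p = 0.63), and none of all genes passed. The sums of the groups did not overlap, so this fit separates the score from CHP poorly. *Agpat2*, which rose with WD, had a log2 fold change of -0.41 (SE 0.15, adjusted p = 0.28), *Pparg* a log2 fold change of -0.38 (SE 0.12, adjusted p = 0.20) and *Dgat2* a log2 fold change of -0.29 (SE 0.11, adjusted p = 0.29). *Elovl6* had a log2 fold change of -0.51 (SE 0.21, adjusted p = 0.31), with every WD+CHP library below every WD library. *Fasn* had a log2 fold change of -0.33 (SE 0.19, adjusted p = 0.51). None of these passed the test.

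**Figure D4:**
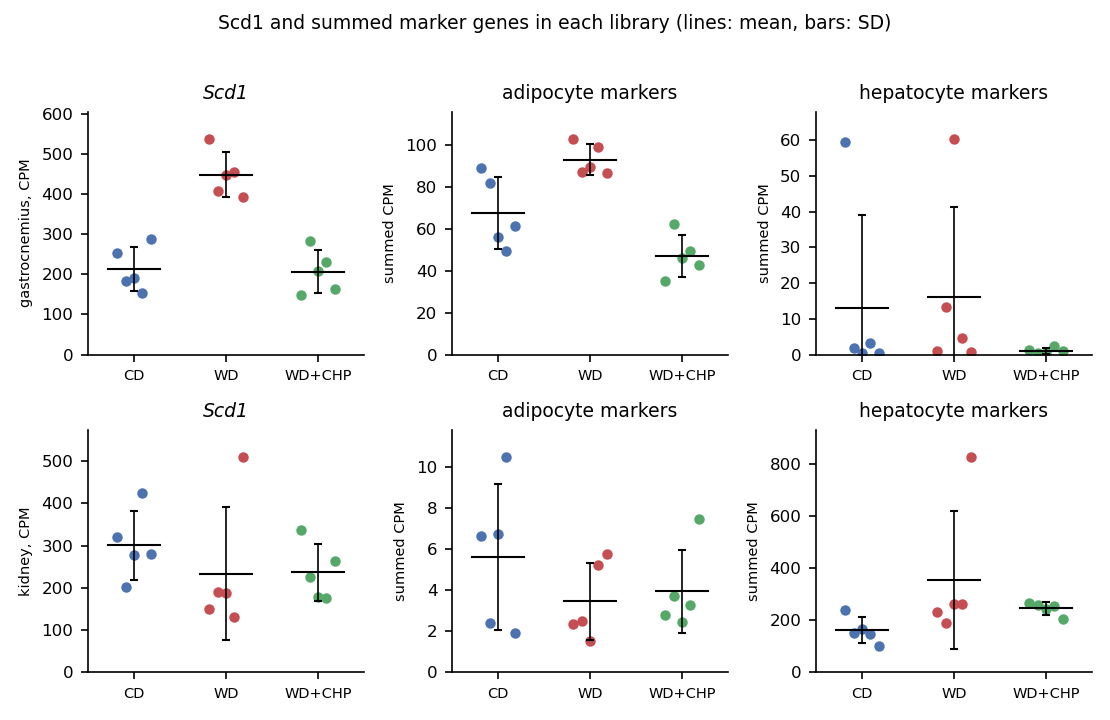
CPM of *Scd1* (left) and summed CPM of adipocyte (middle) and hepatocyte (right) markers in each library of gastrocnemius (top) and kidney (bottom), with lines for the mean and bars for the SD. In gastrocnemius the 5 WD libraries stand highest both for *Scd1*, at 394 or more, and, with the exception of 1 CD library, for adipocyte markers, and kidney WD replicate 5 stands highest for *Scd1* and hepatocyte markers.

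In kidney, *Gpam* and *Acaca* had the smallest p-values. *Gpam*, which fell on WD, was higher in every WD+CHP library than in every WD library (log2 fold change 0.28, SE 0.073, adjusted p = 0.15), and its mean of 81.2 ± 7.68 stood near the 84.0 ± 8.70 of CD. DESeq2 called it, with a log2 fold change of 0.28 and an adjusted p of 0.0379. The summed CPM of 7 proximal tubule markers was 33420 to 37059 in CD, 29283 to 32748 in WD and 32271 to 37407 in WD+CHP. Of the 7, 0 passed in WD+CHP vs. WD, and their part in the level of *Gpam* was not tested. *Acaca* stood at 28.0, 29.9, 26.5, 26.4 and 23.0 CPM in CD, 23.9, 25.6, 28.5, 26.7 and 27.5 in WD, and 33.8, 27.5, 30.4, 34.6 and 33.1 in WD+CHP. WD+CHP overlapped WD only through WD+CHP replicate 2, with a log2 fold change of 0.27 (SE 0.072, adjusted p = 0.16). *Scd2*, *Fads1* and *Fads2*, the 3 genes with the smallest adjusted p on WD vs. CD, had a log2 fold change of -0.11 (SE 0.049, adjusted p = 0.43), a log2 fold change of 0.084 (SE 0.084, adjusted p = 0.76) and a log2 fold change of 0.045 (SE 0.045, adjusted p = 0.76). Their 95% intervals were -0.20 to -0.010, -0.080 to 0.25 and -0.043 to 0.13, all smaller than the change that WD made.

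**Figure D5:**
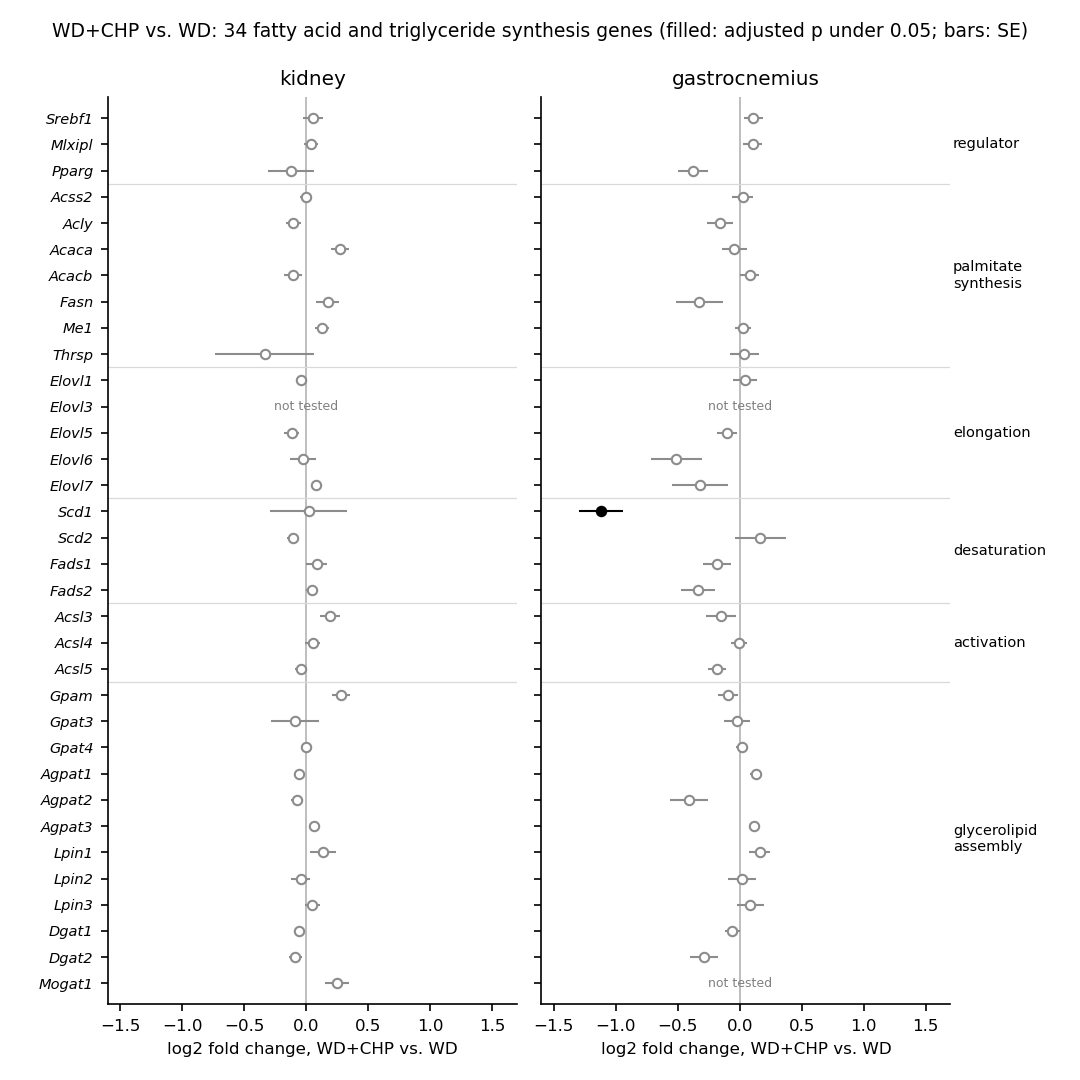
Log2 fold change of WD+CHP vs. WD for the 34 genes in kidney (left) and gastrocnemius (right), ordered by role, with bars for the standard error and filled points for an adjusted p under 0.05. The only filled point is *Scd1* in gastrocnemius, at -1.12.

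The response to CHP was not shown to differ between tissues for any of the genes. The difference (gastrocnemius minus kidney) passed for 0 of 33 with edgeR, DESeq2 and limma-voom alike, beside 0.347% of all genes tested. An unadjusted p under 0.05 was found for 10 of 33, beside 2201 of all 18708 genes tested. For *Scd1* it was -1.13 (SE 0.38, adjusted p = 0.20). Without kidney WD replicate 5 it was -1.64 (SE 0.29, adjusted p = 0.013). For *Gpam* it was -0.37 (SE 0.12, adjusted p = 0.17), and separate fits of the tissues gave -0.38 (adjusted p = 0.0345).

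WD+CHP was also compared with CD. It shares the CD libraries with WD vs. CD, so the values stand side by side and are not independent. In gastrocnemius 11 of 32 genes passed (34.4%), beside 9.4% of all genes tested, 4 higher and 7 lower. *Dgat2* was 2.15-fold higher than in CD (log2 fold change 1.11, SE 0.11, adjusted p = 4.7e-05), with no overlap. Of 9 adipocyte markers in this comparison, 3 rose (*Lep* by a log2 fold change of 2.08, *Adig* by 1.01 and *Trarg1* by 0.50) and 2 fell (*Cfd*, -1.59, and *Acvr1c*, -1.21), and their sum was 35.2 to 62.5 in WD+CHP against 49.4 to 89.1 in CD. *Cidea* rose as well (1.98). With the adipocyte score as a covariate, *Dgat2* had a log2 fold change of 1.09 (adjusted p = 2.9e-05). Each of the 11 genes kept an adjusted p under 0.05 in that fit. The part of *Cidea* in the level of *Dgat2* was not tested. *Fasn* was 2.27-fold lower (log2 fold change -1.18, SE 0.19, adjusted p = 0.0014) and *Elovl6* 2.29-fold lower (log2 fold change -1.20, SE 0.20, adjusted p = 0.0018), both without overlap. *Acaca* (log2 fold change -0.50, SE 0.10, adjusted p = 0.0060) and *Acly* (log2 fold change -0.57, SE 0.10, adjusted p = 0.0031) were lower in all WD+CHP libraries too. *Lpin1* was lower with overlapping groups (log2 fold change -0.36, SE 0.085, adjusted p = 0.014), and *Elovl1* was higher (log2 fold change 0.41, SE 0.10, adjusted p = 0.019), a call lost without WD+CHP replicate 5 (adjusted p = 0.0511).

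Another 4 gastrocnemius genes passed in WD+CHP vs. CD and in neither of the other comparisons of this tissue. *Fads1* stood at 8.51, 10.3, 7.71, 5.98 and 6.94 CPM in CD, 5.74, 7.11, 6.90, 6.35 and 6.18 in WD, and 5.18, 5.62, 6.26, 5.71 and 5.65 in WD+CHP, lower under WD+CHP (log2 fold change -0.47, SE 0.12, adjusted p = 0.017). *Fads2* stood at 4.41, 4.39, 3.27, 3.01 and 3.78 CPM in CD, 2.95, 3.50, 4.53, 3.28 and 3.04 in WD, and 2.81, 2.50, 3.24, 2.33 and 2.82 in WD+CHP, lower as well (log2 fold change -0.46, SE 0.14, adjusted p = 0.043). Both are low genes in muscle. *Agpat3* stood at 131, 147, 125, 133 and 132 CPM in CD, 134, 132, 141, 140.1 and 140.0 in WD, and 149.9, 155, 141, 152 and 148 in WD+CHP, slightly higher (log2 fold change 0.16, SE 0.045, adjusted p = 0.040), and *Srebf1* was higher in every WD+CHP library than in every CD library (log2 fold change 0.29, SE 0.077, adjusted p = 0.027). With 1 library left out in turn, the call of *Fads2* was kept in 3 of 10 fits, that of *Agpat3* in 2 and that of *Srebf1* in 5, with adjusted p up to 0.0974, 0.104 and 0.0739. The call of *Srebf1* was also lost with the replicate block (adjusted p = 0.062), and the overlapping *Rai1* had a log2 fold change of 0.053 (adjusted p = 0.64). The count of 11 fell to 7 without WD+CHP replicate 5.

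In kidney 9 of 33 genes passed in WD+CHP vs. CD (27.3%), beside 12.1% of all genes tested, 4 higher and 5 lower. Of 7 proximal tubule markers, 2 fell (*Cubn* and *Slc27a2*) and 1 rose (*Slc5a2*), of 6 hepatocyte markers *Ttr* rose, and of 4 tested fast fibre markers *Pvalb* rose, which the distal tubule also expresses. Their part in the values was not tested. *Scd2* (log2 fold change 0.71, SE 0.050, adjusted p = 1.5e-06), *Fads1* (log2 fold change -0.55, SE 0.084, adjusted p = 0.0010), *Fads2* (log2 fold change -0.23, SE 0.045, adjusted p = 0.0048), *Elovl6* (log2 fold change -0.41, SE 0.10, adjusted p = 0.018) and *Lpin3* (log2 fold change -0.19, SE 0.059, adjusted p = 0.048) had the direction they had on WD alone. *Gpat3* was lower (log2 fold change -0.66, SE 0.19, adjusted p = 0.031). *Srebf1* stood at 47.3, 43.9, 43.4, 35.2 and 35.3 CPM in CD, 46.3, 47.9, 51.5, 55.4 and 44.7 in WD, and 55.5, 52.1, 49.3, 50.9 and 47.3 in WD+CHP and was higher than in CD (log2 fold change 0.31, SE 0.081, adjusted p = 0.020), while the overlapping *Rai1* had a log2 fold change of 0.046 (adjusted p = 0.63). Only 1 WD+CHP library reached down to the highest CD library. *Acaca* was higher too (log2 fold change 0.25, SE 0.072, adjusted p = 0.032), a call that was lost without any of CD replicate 5 and WD+CHP replicates 1, 4 and 5 (adjusted p up to 0.0832) and kept in 6 of 12 other settings, with adjusted p = 0.070 by library total and 0.060 with the replicate block. The call of *Elovl6* was lost without CD replicate 5 or WD+CHP replicate 3 (adjusted p up to 0.0587), while that of *Gpat3* was kept in 4 of 10 fits with 1 library left out (adjusted p up to 0.0957) and that of *Lpin3* in 1 (up to 0.123). *Mogat1* (ENSMUSG00000012187, chr1:78510991-78538173, plus strand), which makes diacylglycerol from monoacylglycerol, stood at 73.5, 68.0, 79.4, 63.3 and 52.2 CPM in CD, 85.0, 72.2, 85.1, 74.4 and 74.3 in WD, and 100.1, 103, 99.0, 84.7 and 77.2 in WD+CHP. It was 1.38-fold higher than in CD (log2 fold change 0.46, SE 0.099, adjusted p = 0.0075), with 1 CD library inside the WD+CHP range. *Mogat1* overlaps exons of *BC035947* on the opposite strand, for which the same comparison gave a log2 fold change of -0.086 (adjusted p = 0.51).

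The levels of these genes on CD were then compared between tissues. On CD, 29 of 33 genes differed between gastrocnemius and kidney (87.9%), beside 88.1% of all genes tested, so the count says nothing particular of these genes. Because scaling by TMM put the median of all genes at -0.13 (log2, gastrocnemius minus kidney) and scaling by library total at -0.98, a direction is given only where both scalings called it. That left 8 genes higher in muscle and 18 higher in kidney. Muscle was higher in *Acacb*, the malonyl-CoA source at mitochondria (log2 difference 4.93 with TMM, 4.08 by library total), *Lpin1* (3.17 and 2.31), *Thrsp* (2.56 and 1.71), *Srebf1* (2.39 and 1.54), *Gpam* (2.05 and 1.20), *Pparg* (1.43 and 0.58), *Acsl3* (1.32 and 0.47) and *Acaca* (1.11 and 0.26). *Mogat1* had 2054 to 3037 counts in the kidney CD libraries and 0 to 10 in those of gastrocnemius, where it failed the filter, so no fold is given. The overlapping *BC035947* had a mean count of 5437.9 in kidney and 3.3 in gastrocnemius, so reads of the pair may not be told apart. Kidney was also higher in *Elovl7* (log2 difference -7.31 with TMM, -8.16 by library total), *Fads2* (-4.82 and -5.67), *Elovl1* (-3.69 and -4.54), *Lpin2* (-3.54 and -4.39) and *Fads1* (-3.36 and -4.20), followed by *Elovl6* (-2.73 and -3.58). *Acly* (-1.87 and -2.72), *Agpat2* (-2.03 and -2.88) and *Dgat2* (-1.66 and -2.51) were higher in kidney as well. For *Fasn*, *Me1*, *Scd1*, *Scd2*, *Acsl4*, *Gpat4* and *Agpat1* the scalings did not give the same call.

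Per kilobase of exon, which allows levels of different genes to be compared, kidney CD libraries were led by *Me1*, the NADPH-making malic enzyme, at a mean of 141 CPM per kb. *Scd1* (61.4), *Agpat3* (60.0), *Fads2* (56.2) and *Dgat2* (46.9) came next. In gastrocnemius, *Me1* (87.2 CPM per kb) was followed by *Acacb* (58.4), *Lpin1* (55.6), *Scd1* (43.7) and *Agpat1* (30.9). *Fasn* stood at 10.2 CPM per kb in kidney and 6.92 in gastrocnemius. These values do not order the tissues, because the 2 scalings gave no common call for *Fasn*. The polyunsaturated desaturases were low in muscle, at 1.64 (*Fads1*) and 1.14 (*Fads2*) CPM per kb, against 29.3 and 56.2 in kidney.

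A list of 52 neighbouring genes (SREBP processing, citrate export, NADPH supply, further elongases, desaturases and acyltransferases, AMPK subunits, lipid droplet factors) was read beside the 34. In WD vs. CD, 10 of 45 tested passed in gastrocnemius (22.2%, beside 8.63% of all genes), 8 higher and 2 lower, and 15 of 51 in kidney (29.4%, beside 9.65% of all genes), 9 higher and 6 lower. In gastrocnemius, *Fads3*, a desaturase that acts on sphingoid bases, had the smallest adjusted p of the list (log2 fold change 1.13, SE 0.09, adjusted p = 5.8e-06). *Mid1ip1*, an activator of acetyl-CoA carboxylase, rose in both tissues (0.74 in gastrocnemius, 0.33 in kidney). *Pnpla3*, a lipid droplet protein, rose in gastrocnemius (0.66), and *Pcx*, pyruvate carboxylase, fell there (-0.56). In kidney, *Pklr*, the liver-type pyruvate kinase and a known ChREBP target, rose (0.65), as did the *Scd1* paralogue *Scd3* (1.41), whose reads may be shared with *Scd1* and *Scd2*. In WD+CHP vs. WD, *Fads3* alone of the list fell in gastrocnemius (-0.58, SE 0.08, adjusted p = 0.0067), and 0 of 51 passed in kidney with edgeR. There 7 of 51 had an unadjusted p under 0.05, beside 1958 of all 17120 genes tested. *Fads3* was also the 1 gene of the list whose response to CHP differed between tissues (-0.59, adjusted p = 0.0042).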

How the data were processed

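The authors deposited raw gene counts of bulk RNA-seq (BGISEQ-500, poly(A) RNA), 1 table for kidney and 1 for gastrocnemius, with 15 libraries each. Reads were filtered with SOAPnuke and aligned with STAR 2.7.3a, per the submitters' processing notes, which name GRCm38/mm10. The counting tool, annotation and strand setting are not given in the sources used here. Gene positions come from GENCODE M21. The members and gene lists were chosen with earlier results of these data known.

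Counts were tested with edgeR 4.0.16 (R 4.3.3): filterByExpr with a minimum count of 10, TMM factors, a quasi-likelihood fit of the 3 groups per tissue, and Benjamini-Hochberg adjustment over all genes, with calls at an adjusted p under 0.05. Differences between tissues, with libraries taken as independent, came from 1 fit of 30 libraries over the 54500 genes in both tables, of which 18708 passed the filter. Log2 fold changes used the default prior count of edgeR. A prior count of 2 was used for the log CPM behind the adipocyte score and the length and GC terms. Libraries held 37189192 to 53282969 counts. All 34 members are reported, and those that passed in any comparison of a tissue, or in a difference between tissues, are given with every library. The code was tested on simulated data.

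Alternatives were DESeq2 1.42.0, limma-voom (limma 3.58.1), library totals, no count filter, other thresholds, a replicate block, length and GC terms, an adipocyte score, and leaving out each library. Leaving out the kidney library with the most adipocyte RNA in each group and the 2 gastrocnemius libraries with the most hepatocyte RNA was chosen after seeing the data. Promoter letters were searched on both strands of the 250 bases before each RefSeq start.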

Additional observations from a re-analysis of the deposited data

Results flagged for a closer look

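Among the 93 groups of 5 libraries of the genes given in full, 5 held a library far from the others by Dixon's test, and chance alone gives about 1 in 20 groups. Kidney *Scd1* was 510.2 CPM in WD replicate 5, with the next library at 189. Kidney *Gpam* was 99.3 CPM in CD replicate 2, with the next at 83.0. Kidney *Lpin1* was 155 CPM in WD+CHP replicate 3, with the next at 124. Kidney *Dgat2* was 154 CPM in CD replicate 5, with the next at 144. Gastrocnemius *Agpat2* was low at 6.50 CPM in WD replicate 2, with the next at 7.97.

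The response to WD differed between tissues (gastrocnemius minus kidney, log2) by -0.58 for *Acly*, 1.44 for *Scd1*, 0.53 for *Gpam*, 0.84 for *Gpat3*, 0.90 for *Agpat2*, -0.71 for *Lpin1* and 1.14 for *Dgat2*.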

How the results depend on the processing

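Of 45 named results, 0 reversed in any setting and 29 passed with every single library left out. In kidney WD vs. CD, 8 genes passed, against 13 at an adjusted p under 0.1, 13 with length and GC terms and a replicate block, and 6 to 11 with 1 library left out. In gastrocnemius WD vs. CD, 9 passed, against 0 with the adipocyte score as a covariate and 7 to 11 with 1 library left out. In WD+CHP vs. WD, kidney had 0, with 1 by DESeq2 and 0 to 0 with 1 library left out, and gastrocnemius had 1, with 0 under the adipocyte score and 0 to 1 with 1 library left out. WD+CHP vs. CD gave 6 to 9 in kidney and 7 to 13 in gastrocnemius with 1 library left out. The tissue difference in the response to WD gave 5 to 10, that in the response to CHP 0 to 1 (1 without kidney WD replicate 5, 1 with separate fits, 1 without the 5 doubted libraries), and tissue levels 28 to 30. The causes were not tested. By library total, the split of calls was 3 higher and 7 lower for kidney WD+CHP vs. CD (4 and 5 with TMM), and 7 and 2 for the tissue difference on WD (5 and 2).

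Same-numbered libraries of different groups in a tissue did not deviate together (correlations of -0.13 to 0.15), so the numbers were not taken to pair them. Pairing between tissues was not checked. With the replicate block, WD vs. CD gave 11 calls in kidney and 7 in gastrocnemius, WD+CHP vs. WD 0 and 1, WD+CHP vs. CD 9 and 8, and the differences between tissues 7, 0 and 29. Genes under about 1 CPM, such as *Elovl3*, are limited by depth.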
